A study of Mus musculus with 4 samples.

Results

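The RNAs of 6 genes, Id1, Id2, Id3, Id4, Smad6 and Smad7, were followed across the cell classes of the dissociated mouse brain and between brains dissociated without and with inhibitors of new transcription and translation. The genes were taken by symbol from the 31053 genes of the count matrices, and all 6 were found. They were selected on measured values: a difference in Smad6 between the inhibitor groups in mural-like cells was known when the set was drawn up. The members' differences in mural-like and endothelial-like cells are therefore described below with no test, and tests are given for the other cell classes and for other genes of the pathway.

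Bone morphogenetic proteins (BMPs) bind receptor pairs at the cell surface, which phosphorylate Smad1, Smad5 and Smad9. These enter the nucleus with Smad4 and switch on the Id genes and the inhibitory Smads. Id proteins lack a DNA-binding region and hold E proteins (Tcf3, Tcf4 and Tcf12) away from DNA, whereas Smad6 and Smad7 act back on the receptors and close the loop. In brain vessels the endothelial receptor Acvrl1 and its co-receptor Eng carry this signal, in astrocytes Id proteins are known from BMP responses, and in lymphoid cells Id2 is a lineage regulator.

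The start site is shown for Smad6 alone, since the promoter windows of the other members were missing or began within an annotated transcript. The gene lies on the minus strand at chr9:63953076-64022059 of GRCm38 (ENSMUSG00000036867). The RefSeq promoter table (GRCm38.p6) held 4 of the 6 genes (Id2, Id3, Id4 and Smad6), and the Smad6 stretch chr9:64022056-64022309, minus strand, is printed 5′ to 3′ with the palindromic Smad-binding element GTCTAGAC in capitals.
Smad6: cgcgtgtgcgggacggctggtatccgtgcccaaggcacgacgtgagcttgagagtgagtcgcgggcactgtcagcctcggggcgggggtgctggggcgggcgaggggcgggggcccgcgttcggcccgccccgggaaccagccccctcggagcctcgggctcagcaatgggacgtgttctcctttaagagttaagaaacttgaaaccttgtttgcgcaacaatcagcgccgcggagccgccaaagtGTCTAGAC
The element crosses the start site, from base -4 to base 4, and 4 transcribed bases are printed. It was searched on both strands in windows of 300 bases, from 250 before to 50 after the start, and 57 of 27018 promoters held it (0.211%). Its core GTCT, which the palindrome contains once on each strand, was in 88.1% of the windows. The GC-rich Smad site GGCGCC was in 12% of all windows. Windows of Id2 and Id4 held GGCGCC once each, and the Id3 window held GTCT 3 times. A match of letters is not evidence of binding.

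The data are 4 single-cell libraries (10x Genomics, 3′ version 2), each from the whole brain of 1 male C57BL/6J mouse at postnatal day 90, labelled as 1 batch. All 4 brains were digested enzymatically, with meninges removed as far as possible. In the inhibitor group (2 libraries) actinomycin D and triptolide were in the perfusion buffer, and these with anisomycin in the dissection and digestion buffers. The other 2 libraries had no inhibitor at any step. No sorting was applied, and nothing in the labels pairs animals across groups.

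Library totals lay between 5134359 and 7529804 UMIs (unique molecular identifiers, 1 per captured RNA molecule). Of 12487 barcodes 9811 were kept, with medians of 1442 to 1686 UMIs per cell in the 4 libraries. Libraries shared 9 to 13 cell barcodes pairwise. Clustering without the 6 genes and without known activation genes gave 30 clusters in 15 marker-named classes, of which 9 held at least 20 cells in every library. Levels are given as CPM, a gene's UMIs per 1000000 UMIs of that class in that library, and are compared within a gene. A level per class does not tell fewer RNA molecules in every cell from fewer cells holding the RNA. Groups of 2 libraries often fail to overlap, so non-overlap alone is not read as a difference. Among the other pathway genes tested, groups did not overlap for 10 of 28 in mural-like and 9 of 34 in endothelial-like cells.

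Mural-like cells (329) carry their label with a limit that bears on all 6 genes. They fell into 3 clusters: a pericyte cluster of 130 cells (cluster 15), a smooth muscle cluster of 47 (cluster 26) and a mixed cluster of 152 (cluster 14). In the mixed cluster the 10 endothelial markers summed to 15500 CPM and the 12 mural markers to 8534 CPM. The pericyte cluster held 891 CPM of endothelial and 33080 CPM of mural markers. All 10 endothelial markers, Cldn5 and Pecam1 among them, were above 0 in each of the 3 clusters, so their sum and not their presence differed. The median depth of the mixed cluster was 3822 UMIs per cell against 987 in the pericyte cluster. Whether the barcodes of the mixed cluster hold a mural and an endothelial cell together was not tested.

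Of the 9 classes, Id1 and Id3 were highest in endothelial-like cells, and their mural-like levels came mainly from the mixed cluster. In the pericyte cluster alone Id1 was at 77.8 CPM and Id3 at 148.5 CPM over all libraries. Id1 (chr2:152736251-152737410, plus strand) was highest in the 1664 endothelial-like cells, at 1879, 1787, 1788 and 1940 CPM in the 4 libraries (mean 1848 ± 74.7, SD, n = 4). Mural-like cells followed at 926 ± 62.1 CPM and choroid plexus-like cells at 150.5 ± 20.1 CPM. The libraries of these 3 classes did not overlap each other. The next classes, neuron-like (81.0), astrocyte-like (62.5) and ependymal-like cells (45.8 CPM), overlapped in order, neuron-like with choroid plexus-like cells too, and microglia-like, oligodendrocyte-like and macrophage/monocyte-like cells had means of 14.5 CPM or less.

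Id3 (chr4:136143497-136145755, plus strand) had the same first 2 classes, at 1837 ± 116 CPM in endothelial-like and 1075 ± 39.4 CPM in mural-like cells. Astrocyte-like cells came next at 364.5 ± 50.5 CPM and overlapped choroid plexus-like cells at 281.1 ± 81.5 CPM. The remaining 5 classes were at 16.2 to 53.8 CPM.

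Id2 and Id4 had their highest levels outside the vessels. Id2 (chr12:25093799-25097140, minus strand) reached 956.6, 1048, 971.6 and 1121 CPM in astrocyte-like cells (mean 1024 ± 75.9, n = 4), and the next class, choroid plexus-like cells, was at 231.6 ± 75.5 CPM with no overlap. From there to microglia-like cells (71.0 CPM) each class overlapped its neighbour, and oligodendrocyte-like cells were lowest at 17.2 CPM. Id4 (chr13:48261228-48266026, plus strand) was at 858.4 ± 68.9 CPM in astrocyte-like and 851.7 ± 120 CPM in ependymal-like cells, a pair whose libraries overlapped. Without replicate 2 of the no-inhibitor group, or without replicate 1 of the inhibitor group, the ependymal-like class had the higher Id4 mean. Choroid plexus-like cells held 138.2 ± 12.2 CPM of Id4, and endothelial-like and mural-like cells 13.2 and 11.7 CPM.

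Astrocyte-like clusters differed in their Id genes. In cluster 20 (90 cells) Id4 was at 1960 to 2170 CPM in the 4 libraries and Id2 at 264.4 to 618.5 CPM. In cluster 2 (953 cells) the order was the other way, with Id2 at 1021 to 1123 CPM and Id4 at 294.6 to 453.3 CPM. Both RNAs are of the same family, and the ranges of each over libraries did not overlap between these clusters. Cluster 5 (724 cells) lay between for Id4, at 1000 to 1148 CPM.

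The inhibitory Smads were lower and split between cell classes. Smad6 was highest in mural-like cells (85.5 ± 54.4 CPM, 77 UMIs in all) and endothelial-like cells (44.4 ± 12.7 CPM, 161 UMIs), 2 classes whose libraries overlapped. Ependymal-like cells were at 21.2 ± 8.46 CPM (18 UMIs) and overlapped both, and the other classes at 6.28 CPM or less. Of the 77 mural-like UMIs, 75 lay in the mixed cluster with its endothelial RNA. The pericyte cluster held 0 and the smooth muscle cluster 2, or 16 CPM over all libraries. Smad6 had 0 UMIs in the oligodendrocyte-like cells of all 4 libraries, of 2745736 UMIs, which allows a level of up to 1.09 CPM over the class. In macrophage/monocyte-like cells 0 of 336305 UMIs allows up to 8.92 CPM.

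Smad7 was highest in oligodendrocyte-like cells, at 196.6, 220.6, 244.5 and 238.4 CPM (mean 225 ± 21.5, n = 4), above every other class in every library. Microglia-like (102.4 ± 23.2), endothelial-like (101.2 ± 29.1) and mural-like cells (94.1 ± 2.86 CPM) came next and overlapped. Astrocyte-like cells, where Id2 and Id4 were high, held 5.71 to 11.01 CPM of Smad7 in the 4 libraries.

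**Figure D1:**
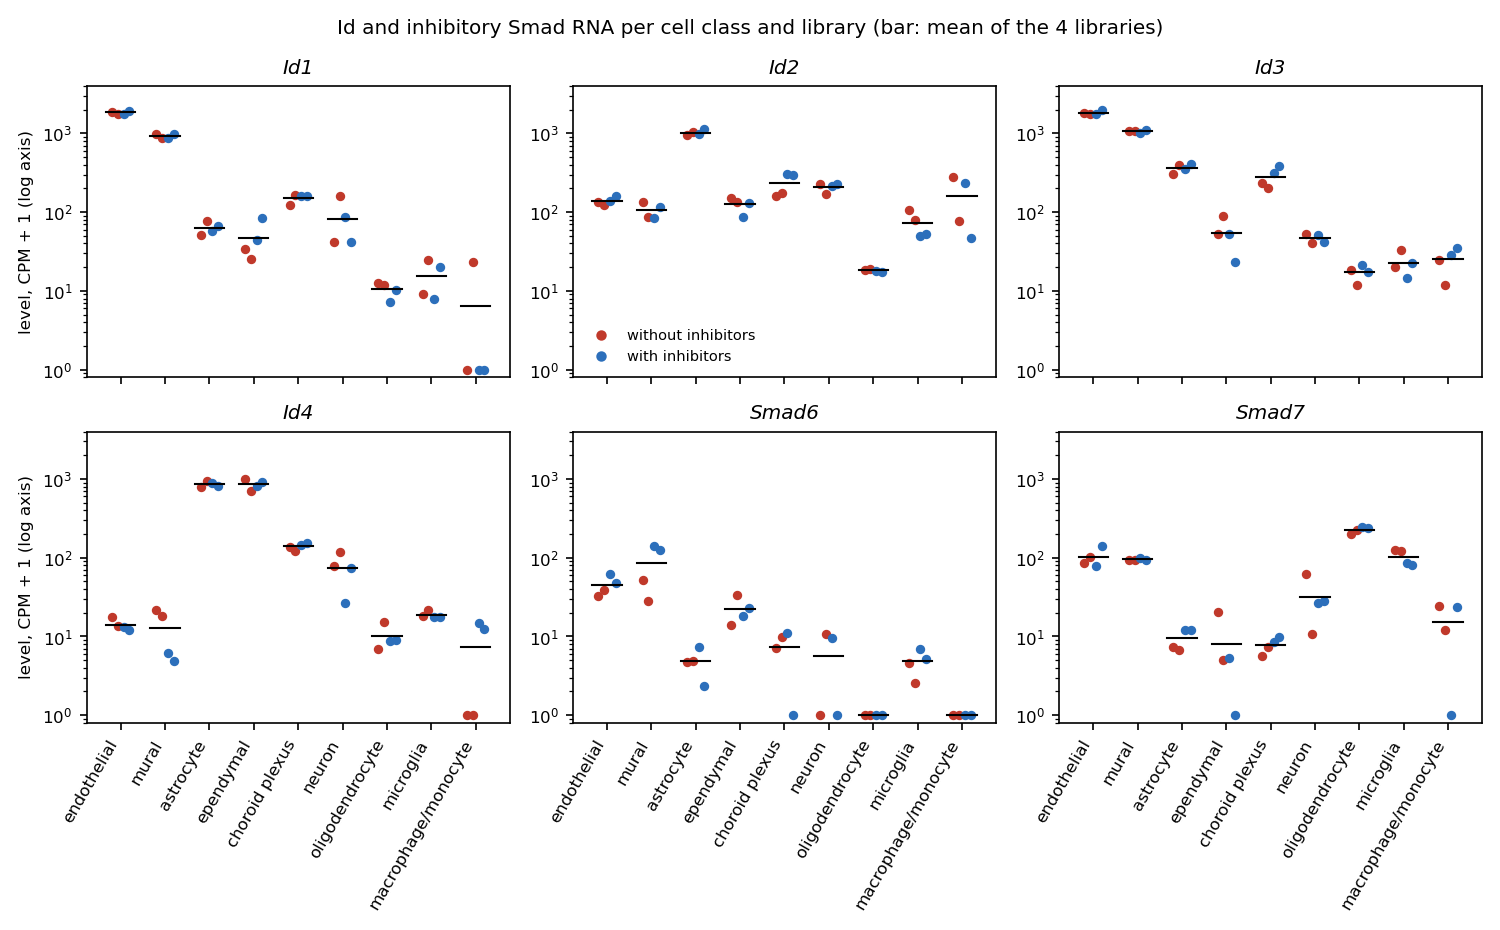
Level of each gene (CPM + 1, log axis) in 9 cell classes, with 1 point per library coloured by inhibitor group and a bar at the mean of the 4 libraries. Id1 and Id3 peak in endothelial-like cells, with the mural-like class, including its mixed cluster, next. Id2 peaks in astrocyte-like cells, Id4 in astrocyte-like and ependymal-like cells, and Smad7 in oligodendrocyte-like cells. Points at 1 are libraries with 0 UMIs of the gene in that class.

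Shares of cells followed the same classes once each cell was thinned to 1000 UMIs. At this depth 79.9% of endothelial-like cells had an Id1 UMI and 82.8% an Id3 UMI, against 40.9% and 49.2% of mural-like cells. In oligodendrocyte-like cells, with a median of 2786 UMIs per cell before thinning against 1760 in endothelial-like cells, the shares were 0.685% and 1.94%. Id2 was seen in 58.6% of astrocyte-like cells and 12.5% of endothelial-like cells. Id4 was seen in 61.4% of ependymal-like cells and 45.6% of astrocyte-like cells, so the order of these 2 classes by share was not that by level. Smad6 was seen in 5.95% of mural-like and 4.50% of endothelial-like cells, and Smad7 in 20.6% of oligodendrocyte-like cells. Before thinning, Id1 was seen in 90.1% of endothelial-like and 2.93% of oligodendrocyte-like cells, Id2 in 71.3% of astrocyte-like cells, Smad6 in 15.5% of mural-like cells and Smad7 in 45.8% of oligodendrocyte-like cells. Cells under 1000 UMIs were left out, from 11 oligodendrocyte-like to 485 microglia-like cells.

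Among classes with under 20 cells in some library, 134 fibroblast-like cells held 767 CPM of Id1, 1087 CPM of Id3 and 65.1 CPM of Smad6 (42 UMIs), summed over libraries. The 21 lymphocyte-like cells held 1845 CPM of Id2 (68 UMIs) and 0 UMIs of Smad6 and Smad7. Neural progenitor-like cells held 436.3 CPM of Id4 and olfactory ensheathing-like cells 393.8 CPM of Id3. The olfactory ensheathing-like cells came from the replicate 1 libraries alone, 28 without and 32 with inhibitors. The 80 erythrocyte-like cells held 725.6 CPM of Id1, beside 10060 CPM of endothelial markers in the same cells.

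In mural-like cells Smad6 was lower in the brains dissociated without inhibitors. The libraries without inhibitors held 10 and 8 Smad6 UMIs (51.8 and 27.4 CPM), and those with inhibitors 27 and 32 (139.7 and 123.2 CPM). The groups did not overlap, and the fitted log2 fold change, without over with inhibitors, was -1.76 ± 0.37 (standard error, n = 2 per group). The UMIs came from 7 and 7 cells without and from 15 and 22 cells with inhibitors, with at most 5 in 1 cell. The difference moved from -2.21 to -1.27 when replicate 1 or replicate 2 of the no-inhibitor group was left out. Over all genes of this class 11 of 4407 passed the call rule (0.25%), a rule of an adjusted p under 0.05 and a log2 fold change beyond 0.58 in either direction. Since Smad6 was selected on this contrast, nothing is read from that share.

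The 4 other members that passed the filter on low counts lay close to 0 on the same scale. Id1 had 973.4 and 882 CPM without against 863.9 and 985.4 CPM with inhibitors, a log2 fold change of 0.04 ± 0.17. Id3 had 1077 and 1080 CPM without against 1024 and 1120 CPM with inhibitors (0.05 ± 0.17). For both, and for Id2 (0.10 ± 0.32) and Smad7 (0.00 ± 0.33), the groups overlapped. Id4 failed the filter, with 4 and 5 UMIs (20.7 and 17.1 CPM) without and 1 and 1 UMI (5.17 and 3.85 CPM) with inhibitors, so that its groups did not overlap and no fold change was fitted. In all, 5 of the 6 members passed the filter in this class.

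The Smad6 UMIs of mural-like cells lay almost entirely in the mixed cluster. It held 75 of 77 (97.4%), while contributing 71.6% of all UMIs of the class. Its Smad6 levels were 71.1 and 38.7 CPM without and 208.7 and 148.1 CPM with inhibitors. The pericyte cluster held 0 Smad6 UMIs of 141437, which allows up to 21.2 CPM, and the smooth muscle cluster held 2. The mixed cluster took 35.7% and 45.7% of the mural-like cells without and 35.8% and 59.4% with inhibitors.

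Id1, Id3 and Smad7 were divided in a similar way. The mixed cluster held 93.6% of the Id1 UMIs, 90.7% of the Id3 UMIs and 89.8% of the Smad7 UMIs of mural-like cells. Its Id1 level over all libraries was 1209 CPM, against 77.8 CPM in the pericyte cluster and 359.9 CPM in the smooth muscle cluster. For Id3 these levels were 1367, 148.5 and 583.8 CPM. The smooth muscle cluster had 719.1 and 330.7 CPM of Id1 without and 101.3 and 150.4 CPM with inhibitors, from 26, 13, 3 and 3 UMIs. Endothelial markers in this cluster moved the same way, at 2047 and 2900 CPM without and 506 and 802 CPM with inhibitors, and their part in the Id1 values was not tested.

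Mural-like cells were also divided at 2 UMIs of the 10 endothelial markers. All 152 cells of the mixed cluster are among the 179 at or above this limit, and the cells below it are shallower (medians of 3399 and 1071 UMIs), so the division is not independent of the clusters or of depth. In the 179 cells Smad6 was at 61.7 and 35.2 CPM without and 196.5 and 142 CPM with inhibitors. In the other 150 cells there was 1 Smad6 UMI in all. There Id1 stood at 118.2 CPM over all libraries against 1149 CPM in the cells with endothelial RNA, and Id3 at 280.7 against 1300 CPM.

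The summed endothelial markers did not separate the inhibitor groups in mural-like cells, at 10860 and 11990 CPM without and 10680 and 11920 CPM with inhibitors. Single markers went both ways. Itm2a was at 1973 and 2038 CPM without and 1278 and 1428 CPM with inhibitors, and Flt1 at 1843 and 2014 against 2188 and 2494 CPM. Emcn was also lower with inhibitors and Cdh5 higher, both without overlap, and the other markers overlapped. In the mixed cluster the endothelial sum was at 15820 and 16130 CPM without and 15750 and 14540 CPM with inhibitors, without overlap. The 6 arterial endothelial markers (Bmx, Gkn3, Sema3g, Vegfc, Efnb2 and Hey1) separated the groups in mural-like cells. They were at 590.3 and 376.1 CPM without and 972.6 and 854.5 CPM with inhibitors, in the same direction as Smad6. Per 100 arterial marker UMIs there were 8.77 and 7.27 Smad6 UMIs without and 14.4 and 14.4 with inhibitors. RNA of other cell types was unevenly spread too. The 6 erythrocyte markers summed to 39750 CPM in the mural-like cells of replicate 1 of the no-inhibitor group and to 1436 to 6291 CPM in the other libraries, and the 8 astrocyte markers to 709.3 and 451.3 CPM without and 294.9 and 342.6 CPM with inhibitors. The immediate early genes Fos and Junb separated the groups in the other direction. Fos was at 362.4 and 290.6 CPM without and 20.7 and 26.9 CPM with inhibitors. Junb was at 217.5 and 164.1 against 67.3 and 73.1 CPM. Dusp1 and Klf2 overlapped between groups. Dusp1 was at 269.2 and 235.9 CPM without and 284.5 and 219.4 CPM with inhibitors, and Klf2 at 1481 and 1282 against 1511 and 1440 CPM. The part of these transcripts in the Smad6 difference was not tested.

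**Figure D2:**
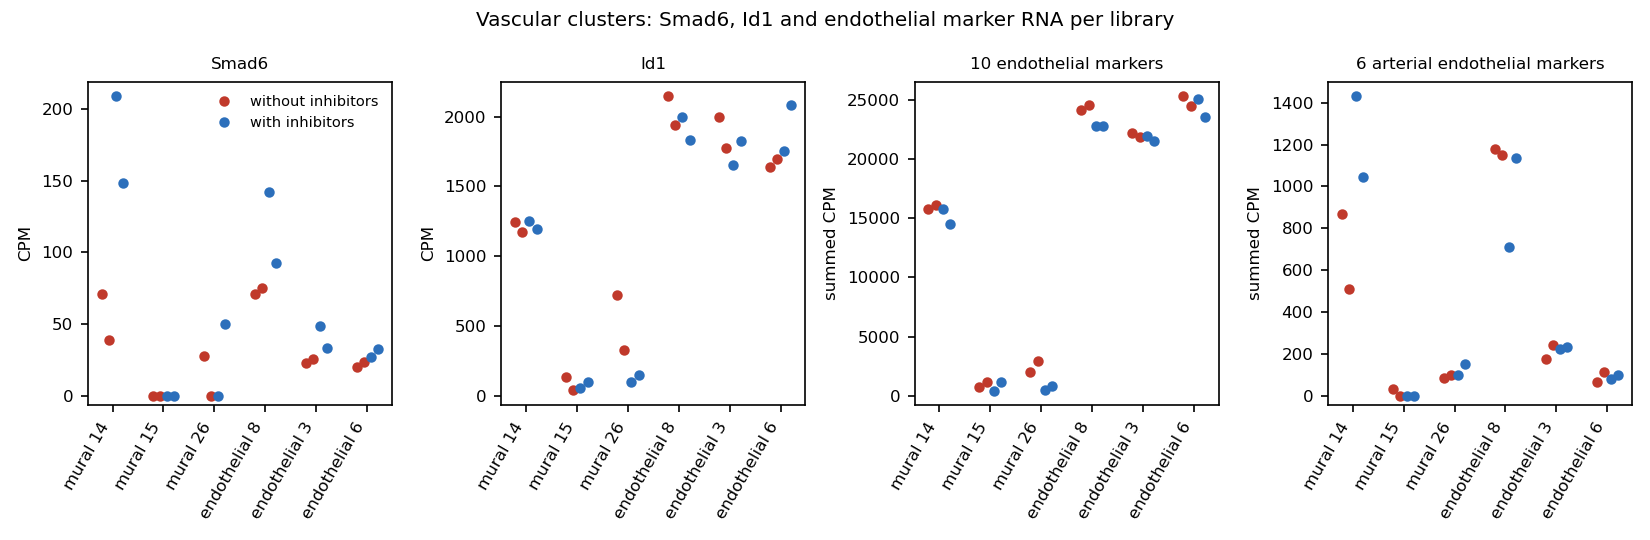
Smad6, Id1, the sum of 10 endothelial markers and the sum of 6 arterial endothelial markers (CPM, linear axes) in 3 mural-like and 3 endothelial-like clusters, with 1 point per library coloured by inhibitor group. Smad6 in the mixed cluster 14 is at 71.1 and 38.7 CPM without and 208.7 and 148.1 CPM with inhibitors, and is at 0 in all 4 libraries of the pericyte cluster 15.

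In endothelial-like cells Smad6 had the same direction with a smaller difference. Its UMIs were 19 and 42 without and 45 and 55 with inhibitors, or 31.8 and 37.8 against 61.1 and 46.8 CPM. The groups did not overlap, and the log2 fold change was -0.54 ± 0.24 (standard error, n = 2 per group). It was -0.23 ± 0.30 under a marker gate that kept cells with at least 3 endothelial and 0 mural marker UMIs. Within the arterial-type cluster 8 of 296 cells, Smad6 was at 71.3 and 75.3 CPM without and 142 and 92.5 CPM with inhibitors. The larger clusters 3 and 6 were lower, at 19.8 to 48.7 CPM. In neither did the groups overlap, but the counts were small. Cluster 3 held 5 and 9 Smad6 UMIs without and 9 and 13 with inhibitors, and cluster 6 held 5 and 11 against 10 and 17. The arterial markers of endothelial-like cells overlapped between groups, at 341.4 and 427.6 CPM without and 272.7 and 381.6 CPM with inhibitors. Within cluster 8 they were higher without inhibitors, at 1181 and 1150 against 709.8 and 1136 CPM, the direction opposite to Smad6.

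Id1 and Id3, the most abundant members here, had log2 fold changes of -0.01 ± 0.09 and -0.04 ± 0.09 in endothelial-like cells. Id1 lay at 1640 to 2147 CPM over the libraries of clusters 3, 6 and 8. Id2 was at 133.9 and 121.5 CPM without and 137 and 161.5 CPM with inhibitors (-0.23 ± 0.15), without overlap. The marker gate gave 0.05 for Id2. Smad7 (-0.25 ± 0.23) overlapped and was at 0.34 without replicate 2 of the inhibitor group, and Id4, at 11.1 to 16.7 CPM in the 4 libraries, had 0.31 ± 0.44. In this class 3 of 8228 genes were called (0.0365%), and the members' values are not read against that share.

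In the 7 other classes, 23 of the 42 member and class pairs had enough UMIs for the test and 3 were called. Counts summed per animal and class were tested with edgeR's quasi-likelihood test, with Benjamini-Hochberg adjustment over all genes of the class. At an unadjusted p under 0.05 there were 4 pairs, all in microglia-like or choroid plexus-like cells. Over all genes of these classes, 543 of 8720 and 920 of 4632 passed the same limit. The pairs called were Id2 and Smad7 in microglia-like cells, where 40 of 8720 genes were called (0.459%), and Id2 in choroid plexus-like cells, where 221 of 4632 were called (4.77%).

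Id2 was higher in microglia-like cells from brains dissociated without inhibitors. It stood at 104.5 and 78.5 CPM without and 48.9 and 52.1 CPM with inhibitors, and the groups did not overlap. The log2 fold change was 0.87 ± 0.18 (adjusted p = 0.00381, edgeR quasi-likelihood test, n = 2 per group). The UMIs came from 81 and 81 cells of 728 and 869 without and from 44 and 55 cells of 697 and 923 with inhibitors. Over the alternatives the adjusted p ran from 0.000139 to 1, the upper end from DESeq2. The call was lost without replicate 1 of the no-inhibitor group (0.67, adjusted p = 0.244, edgeR) and without replicate 1 of the inhibitor group (0.82, adjusted p = 0.0602, edgeR).

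Smad7 was also higher without inhibitors, at 124.3 and 120.5 CPM against 85.1 and 79.9 CPM with them. Its log2 fold change of 0.60 ± 0.15 (adjusted p = 0.0303, edgeR quasi-likelihood test, n = 2 per group) lay just past the fold limit of the call. No replicate could be left out with the call kept, the adjusted p then lying between 0.0902 and 0.355 (edgeR). The call was also lost with DESeq2 (adjusted p = 1), with total UMIs alone (0.57, adjusted p = 0.0545, edgeR) and, by the fold limit, with no doublet removal (0.56). Over all alternatives the adjusted p ran from 0.00458 to 1. Id1 (0.31 ± 0.47), Id3 (0.54 ± 0.31) and Id4 (0.21 ± 0.33) were tested in this class and not called, and Smad6, with 2 to 6 UMIs a library, failed the filter.

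As in mural-like cells, Fos and Junb were higher without inhibitors in microglia-like cells. Fos was at 796.3 and 406.8 CPM without and 2.94 and 2.52 CPM with inhibitors, and Junb at 1440 and 1105 against 238.7 and 211.9 CPM. The 6 erythrocyte markers moved the same way, at 510.8 and 763.6 CPM without and 159.5 and 285.9 CPM with inhibitors, and their part in these differences was not tested. The 8 oligodendrocyte markers, from the class where Smad7 is highest, summed to 1067 and 923 CPM without and 1239 and 1725 CPM with inhibitors, the direction opposite to Smad7. The 8 astrocyte markers, from the class where Id2 is highest, overlapped between groups at 692.7 to 848.5 CPM. Within the 2 largest microglia-like clusters Smad7 was at 111.7 to 134.7 CPM without and 73.1 to 84.8 CPM with inhibitors. The 2 small clusters did not show this: cluster 10 (279 cells) had 32.9 and 98.1 CPM without and 82.0 and 107.5 CPM with inhibitors, and cluster 23 (73 cells, 3 Smad7 UMIs in each library) had 92.3 and 82.0 against 121.5 and 167.5 CPM. Id2 did not overlap between groups in either of the 2 largest clusters, but its nearest libraries lay close together. In cluster 0 it was at 82.0 and 75.2 CPM without and 73.9 and 35.8 CPM with inhibitors. In cluster 1 it was at 119 and 79.7 against 35.8 and 72.7 CPM. Cluster 1 took 29.7% of the microglia-like cells of replicate 2 of the inhibitor group and 47.2% to 51.7% of those of the other libraries.

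Choroid plexus-like cells gave the opposite direction for Id2. Its levels were 158.7 and 174.3 CPM without and 301.1 and 292.3 CPM with inhibitors, with no overlap, and the log2 fold change was -0.67 ± 0.16 (adjusted p = 0.00777, edgeR quasi-likelihood test, n = 2 per group). Without replicate 2 of the no-inhibitor group the value was -0.60 (adjusted p = 0.0649, edgeR) and without replicate 1 of the inhibitor group -0.64 (adjusted p = 0.126, edgeR). DESeq2 gave -0.66 (adjusted p = 0.112), and the adjusted p over the alternatives ran from 0.00403 to 0.126.

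Id3 had 233.5 and 198.7 CPM without and 311.2 and 380.8 CPM with inhibitors in choroid plexus-like cells. Its log2 fold change of -0.48 ± 0.17 was not called (adjusted p = 0.0776, edgeR quasi-likelihood test, n = 2 per group). It was called without replicate 1 of the no-inhibitor group, at -0.67 (adjusted p = 0.00608, edgeR), and with total UMIs alone in place of TMM factors (-0.67, adjusted p = 0.0184, edgeR). Without replicate 2 of the no-inhibitor group the value was -0.23 (adjusted p = 0.637, edgeR). Id1 (0.02 ± 0.19) and Id4 (-0.01 ± 0.21) lay close to 0.

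Scaling mattered in this class. With TMM factors the median log2 fold change of all its genes was -0.02, and 183 genes were called higher and 38 lower without inhibitors. With total UMIs alone the median was -0.19, with 83 higher and 131 lower. Id2 was at -0.67 with the first and -0.84 with the second scaling, below the median of all genes in both.

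Depth and composition of the choroid plexus-like cells moved with the inhibitor group. The median was 2725 and 2379 UMIs per cell without and 1931 and 1354 with inhibitors. Ttr, the transthyretin RNA that dominates this epithelium, took 34.6% and 26.3% of the UMIs without and 21.6% and 20.4% with inhibitors. The 8 oligodendrocyte markers summed to 512.8 and 347.4 CPM without and 619.8 and 810.4 CPM with inhibitors, and the 6 erythrocyte markers to 370.9 and 532 against 160.6 and 261.3 CPM. The median mitochondrial share was 4.83% and 4.82% without and 5.28% and 6.82% with inhibitors. With Ttr left out of the total, Id2 was at 242.8 and 236.6 CPM without and 384 and 367.3 CPM with inhibitors. The class held 2 clusters. In cluster 7, Id2 was at 213.6 and 266.1 CPM without and 391.4 and 329.8 CPM with inhibitors. In cluster 11, with the highest Ttr, it was at 129.2 and 123.5 against 190.2 and 248.8 CPM. The part of depth, Ttr, mitochondrial share and other cells' RNA in the Id2 difference was not tested.

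No member was called in the other 5 classes. In astrocyte-like cells, where 0.048% of genes were called, Id2 was at -0.08 ± 0.11, Id3 at -0.13 ± 0.12, Id4 at 0.03 ± 0.11 and Id1 at 0.07 ± 0.22. In oligodendrocyte-like cells (0.186% called) Smad7 was at 196.6 and 220.6 CPM without and 244.5 and 238.4 CPM with inhibitors, a log2 fold change of -0.24 ± 0.14 that was not called although the groups did not overlap. Id2 (0.07 ± 0.42) and Id3 (-0.33 ± 0.45) came from 6 to 14 UMIs a library. In ependymal-like cells 0 of 4095 genes were called by edgeR (0%), with 157 at an unadjusted p under 0.05, and Id4 was at -0.03 ± 0.18. Id3 in the same cells was at 0.95 ± 0.47 from 4 to 22 UMIs a library, and Id2 at 0.43 ± 0.32. Neuron-like cells (0.0302% called) had Id4 at 0.85 ± 0.62, Id1 at 0.52 ± 0.61 and Id2 at -0.14 ± 0.42. In macrophage/monocyte-like cells (0.426% called) Id2 alone could be tested, at 0.35 ± 0.82.

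**Figure D3:**
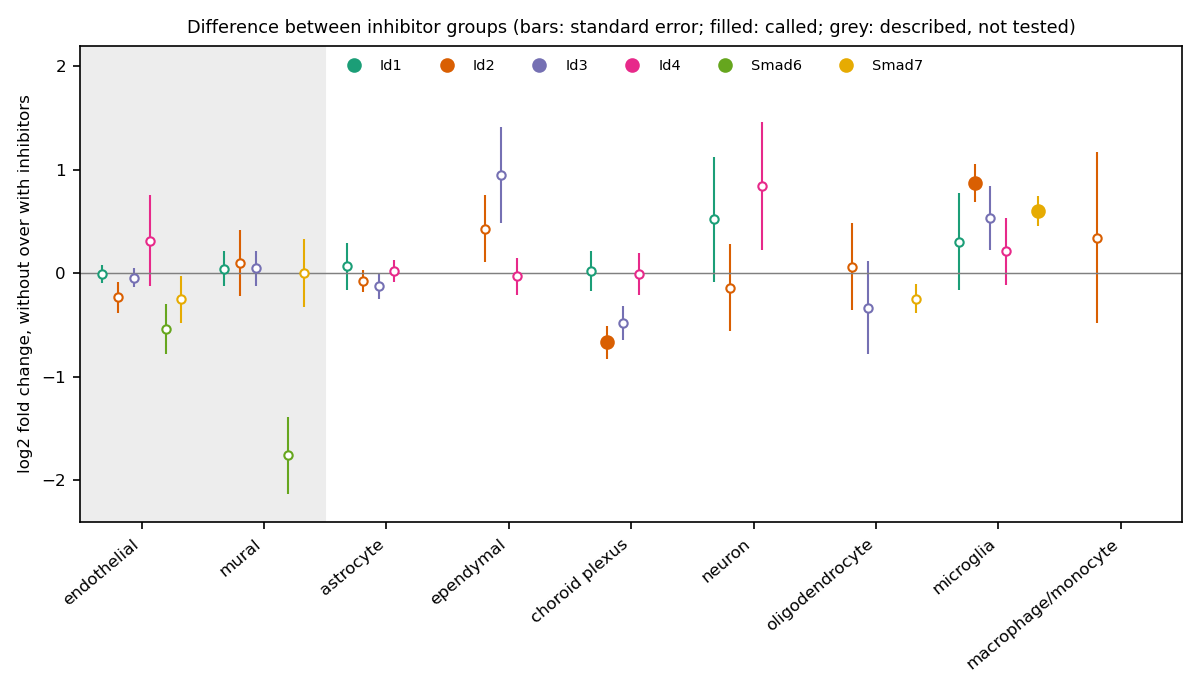
Log2 fold change of each gene, without over with inhibitors, in 9 cell classes, with bars for the standard error of the fit (2 libraries per group). Filled points passed the call rule: Id2 and Smad7 in microglia-like cells (0.87 and 0.60) and Id2 in choroid plexus-like cells (-0.67). The grey band marks the classes described with no test, where Smad6 in mural-like cells lies at -1.76. Genes with too few UMIs have no point.

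Of 69 other genes listed for the pathway, 28 had enough UMIs for the test in mural-like cells and 1 was called. The pathway genes were not split by cluster. The mixed cluster, with its endothelial RNA, contributed 71.6% of the UMIs of the class. The gene called was Cyr61, a matricellular gene of the other targets, at 119.1 and 88.9 CPM without and 5.17 and 50 CPM with inhibitors. Fos and Junb in these cells moved the same way, while Dusp1 and Klf2 overlapped, and the part of any of these was not tested. The log2 fold change of Cyr61 was 1.75 ± 0.44 (adjusted p = 0.0259, edgeR quasi-likelihood test, n = 2 per group). The call was lost without replicate 1 of the no-inhibitor group (1.55, adjusted p = 0.439, edgeR) and without replicate 1 of the inhibitor group (1.04, adjusted p = 0.969, edgeR). It was also lost under 6 other alternatives, in which the value lay between 1.60 and 1.87. Without replicate 2 of the inhibitor group the value was 4.23 (adjusted p = 0.00189, edgeR). At an unadjusted p under 0.05 there were 6 of the 28 genes, beside 258 of 4407 over all genes of the class. The median log2 fold change of the 28 was -0.17, beside 0.00 over all genes of the class.

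Among the 12 other targets, 6 were tested in mural-like cells, with a median of -0.55, and they went both ways, 2 of them (Cyr61 and Hey2, the latter at 0.35 ± 0.52 and chosen after its values were seen) being above 0. Gata2, a transcription factor of endothelium, was at 113.9 and 119.7 CPM without and 186.2 and 180.9 CPM with inhibitors (-0.61 ± 0.28). Hey1, a Notch and BMP target that is also among the arterial markers, was at 77.7 and 68.4 CPM without and 139.7 and 130.9 CPM with inhibitors (-0.86 ± 0.32). Neither was called. Of the 3 E proteins, Tcf4 stood at 600.6 and 618.8 CPM without and 858.8 and 804.5 CPM with inhibitors (-0.40 ± 0.17), Tcf12 was at 0.27 ± 0.30, and none was called.

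Receptors and signal-carrying Smads were not called in mural-like cells. The co-receptor Eng was at 439.8 ± 59 CPM over the 4 libraries with a log2 fold change of -0.22 ± 0.18, and the receptor Acvrl1 at 294.5 ± 32.7 CPM with 0.17 ± 0.21. Both were higher in endothelial-like cells, at 601 and 459.4 CPM. The part of endothelial RNA in their mural-like levels was not tested. Of 14 receptors and co-receptors 7 were tested, with a median of 0.03. Of 6 signal-carrying Smads 3 were tested, with Smad4 at 0.09 ± 0.41 and Smad5 at -0.22 ± 0.45. Of 16 ligands 2 were tested, Tgfb2 (-0.70 ± 0.33) and Tgfb1 (-0.05 ± 0.34). The extracellular inhibitor Nbl1 was at 466.2 ± 76.2 CPM and -0.20 ± 0.18, the other of the highest, Twsg1, failed the filter at 39 CPM, and all 6 intracellular inhibitors were tested with a median of -0.10, Ski being at -0.05 ± 0.29 and Tob1 at -0.50 ± 0.32.

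In endothelial-like cells 34 of the 69 genes were tested with edgeR and 0 were called. At an unadjusted p under 0.05 there were 2, beside 450 of 8228 over all genes of the class. DESeq2 called 0 as well. Their median log2 fold change was -0.01, beside 0.00 over all genes of the class. Eng stood at 601 ± 26.3 CPM (0.03 ± 0.10), Acvrl1 at 459.4 ± 21.9 CPM (0.08 ± 0.11), Smad1 at 67.8 ± 5.65 CPM (-0.01 ± 0.19) and Smad5 at 62.3 ± 13.4 CPM (-0.34 ± 0.21). Among the targets Gata2 (0.05 ± 0.13) and Hey1 (0.06 ± 0.16) were near 0 here. Tcf4 was at -0.09 ± 0.10 and Tcf12 at 0.04 ± 0.17. Tgfb1 (-0.15 ± 0.16), Tgfb2 (-0.04 ± 0.19), Nbl1 (0.43 ± 0.32), Bambi (0.15 ± 0.35), Tob1 (-0.02 ± 0.14) and Skil (-0.09 ± 0.18) make up the rest of the 2 most abundant genes per list.

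Tmem100, a target of Acvrl1 signalling chosen after its values were seen, had the smallest p of the list in endothelial-like cells. It was at 13.4 and 15.3 CPM without and 33.9 and 45.9 CPM with inhibitors, and its log2 fold change of -1.46 ± 0.32 was not called (adjusted p = 0.121, edgeR quasi-likelihood test, n = 2 per group). It was called without replicate 1 of the no-inhibitor group (-1.38, adjusted p = 0.0235, edgeR), without replicate 1 of the inhibitor group (-1.63, adjusted p = 0.0306, edgeR) and with no filter on low counts (-1.46, adjusted p = 0.0123, edgeR). In mural-like cells it was at 72.5 and 51.3 CPM without and 103.5 and 127 CPM with inhibitors (-0.92 ± 0.34, adjusted p = 0.458, edgeR). In endothelial-like cells the value was -0.93 once cells with mural UMIs were left out and -0.49 under a marker gate.

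**Figure D4:**
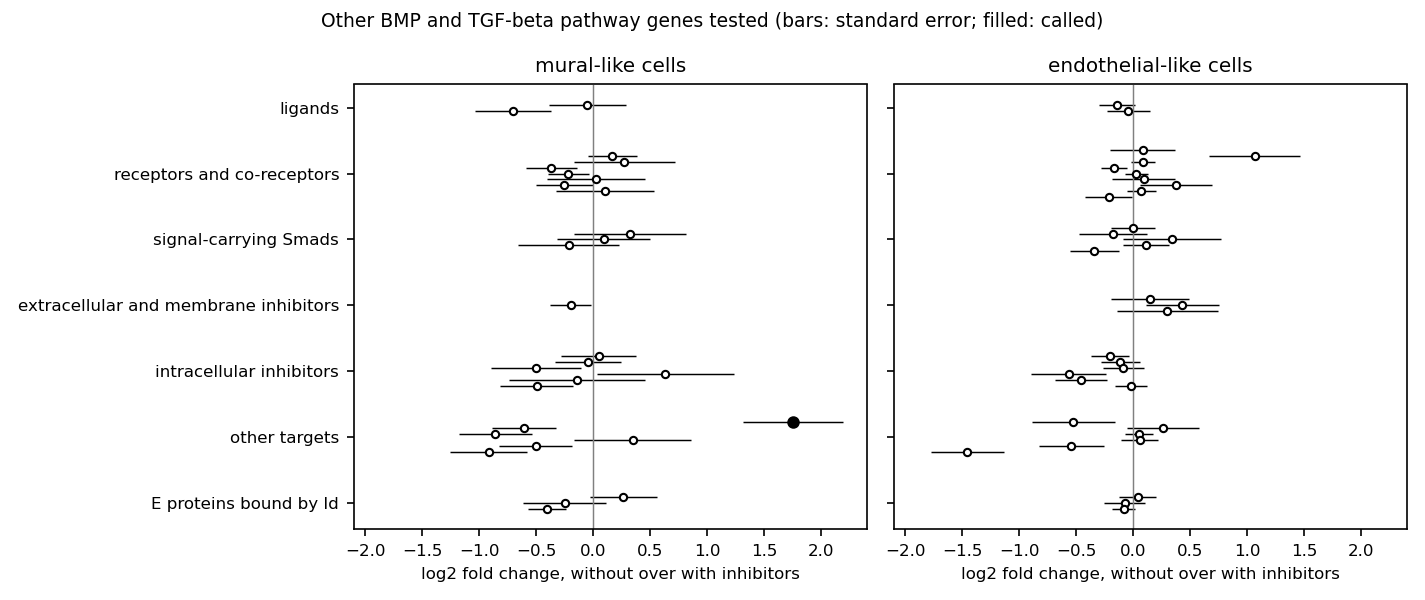
Log2 fold change, without over with inhibitors, of the tested genes of 7 pathway lists in mural-like (28 genes) and endothelial-like cells (34 genes), with bars for the standard error. The 1 filled point is Cyr61 in mural-like cells at 1.75. Of the other targets, the point farthest left in endothelial-like cells is Tmem100 at -1.46.

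The genes with patterns most like each member were sought over 36 sums, 9 classes by 4 libraries, by Pearson's r of log2(CPM + 1). The points share libraries and depth, so r is a description. For Id1 these included Ppp1r2 (0.93) and Tdrp (0.91), both highest in endothelial-like cells. Id3 was nearest to Slco1c1 (0.89), a thyroid hormone carrier of brain endothelium, and Flvcr2 (0.89). Id4 was nearest to Ntrk2 (0.94), highest in astrocyte-like cells, and to Clu (0.94) and Mt3 (0.93), both highest in ependymal-like cells. Id2 was nearest to Eno1 (0.84), Bcl2 (0.82) and Vegfa (0.79).

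Smad6 was nearest to Fzd6 (0.92), a Wnt receptor, Map3k20 (0.88) and Plscr4 (0.87). Smad7 was nearest to Arid5b (0.81), Pllp (0.81), a myelin protein, and Cdc42ep2 (0.81), all highest in oligodendrocyte-like cells. Between members, Id1 and Id3 had the highest r (0.85), followed by Id1 and Smad6 (0.78) and Id3 and Smad6 (0.70). Smad6 and Smad7 had an r of 0.04, and Smad7 was negative with Id2 (-0.58) and Id4 (-0.60).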

How the data were processed

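Single-cell RNA was measured in 4 whole-brain libraries. The deposited values are UMI counts per gene and barcode; the submitters' processing notes name Cell Ranger 3.0.0 and mm10, and 1 matrix per library was used. Depth per library was 5134359 to 7529804 UMIs, and precision is limited by counting error and by 2 animals per group.

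Barcodes with at least 400 genes and at most 20% mitochondrial UMIs were kept (10067 of 12487), and 256 were removed as likely doublets, those with most simulated doublets among their neighbours (2.54%). Cells were clustered with scikit-learn 1.9.0 and leidenalg 0.10.2 (2000 variable genes, 30 components, 15 neighbours, resolution 1), leaving out the members and activation genes, and named from marker lists. UMIs were summed per animal and class and tested with edgeR 4.0.16 (filterByExpr, TMM, quasi-likelihood F test, no covariate); called means adjusted p under 0.05 and a log2 fold change beyond 0.58. The script was tested on simulated data. Levels are plain CPM.

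The members and gene lists were chosen with earlier results of these data known. Named pathway genes are those called and the 2 most abundant per list, and likeness was sought among genes with at least 20 CPM in a class, the 3 nearest per member being named except some that are not reported here. Alternatives covered DESeq2 1.42.0, normalization, filters, doublets, resolution, left-out libraries and a replicate block.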

Additional observations from a re-analysis of the deposited data

Results flagged for a closer look

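Id2 moved in opposite directions in 2 cell classes under the same contrast. It was higher without inhibitors in microglia-like cells (log2 fold change 0.87 ± 0.18) and lower in choroid plexus-like cells (-0.67 ± 0.16), and in each class the libraries of the groups did not overlap. The difference between these 2 changes was not tested. The outlier check could not be applied to groups of 2 libraries.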

How the results depend on the processing

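Outside mural-like and endothelial-like cells, 3 member and class pairs were called, and 2 or 3 were under 7 of the 8 alternatives that kept all libraries. DESeq2 called 0, with 3 at an unadjusted p under 0.05. With 1 library left out 0 to 2 were called, the lone library of a group being assumed to vary like the others. In mural-like cells 1 pathway gene was called, with 1 under relative log expression factors too, and this call was not kept with each library left out. The count was 0 under DESeq2 (2 at an unadjusted p under 0.05), total UMIs alone, no filter on low counts, the stricter cell filter, no doublet removal and Leiden resolution 2. It was also 0 with cells with endothelial UMIs left out and under the marker gate. Only 3 and 4 pathway genes could be tested there, so these counts could hardly show a call. In endothelial-like cells 0 were called, 1 with no filter on low counts and 0 to 1 with a library left out. The cause of these changes was not tested. At Leiden resolution 2 a cluster of 89 cells with the mural markers Abcc9, Rgs5 and Higd1b among its top genes was named endothelial-like. The mural-like class then held 45 and 74 cells without and 55 and 70 with inhibitors, so its label depends on resolution. The Smad6 log2 fold change in mural-like cells was -1.34 at Leiden resolution 2 and -2.21 to -1.27 with a library left out. It could not be computed once cells with endothelial UMIs were left out or under the marker gate, for want of UMIs. With the replicate number as a block, 3 pairs were called outside vascular cells, 1 pathway gene in mural-like and 0 in endothelial-like cells, and Smad6 was at -1.74. In gene levels within the tested classes same-numbered libraries did not deviate together (correlations of -0.207 to 0.0453). In cell makeup they shared 1 trait, olfactory ensheathing-like cells being found in replicate 1 of both groups only. The class of highest level held for 6 of 6 members under the stricter cell filter and for 5 or 6 with a library left out (Id4 moved to ependymal-like cells), and that by share of cells for 6 of 6 at 500 UMIs per cell. Among values of single genes, 743 kept their side of the call, 21 lost a call, 5 gained one, 14 moved by more than the spread, and no called value changed sign. For Smad6, with 77 UMIs in mural-like cells, depth limits the precision.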
